A study of Mus musculus with 4 samples.

Results

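Chemokines, interleukins and the tumour necrosis factor (TNF) family were examined in mouse embryonic stem cells (mESCs) with and without the mitotic kinase Haspin. Genes were taken by symbol: those beginning with Ccl, Cxcl, Ccr, Cxcr or Il followed by a digit, or with Tnfrsf or Tnfsf. Il6st was left out, as were genes whose symbol marks a pseudogene. This gave 169 of the 55401 genes in the table. RNA-seq had been made from E14 mESCs, a line of wild-type (WT) genotype, in 2 libraries, and from Haspin knockout (Haspin-KO) E14 cells in 2 libraries. Both groups grew in knockout DMEM with fetal bovine serum, LIF and the 2i inhibitors. The labels name no treatment and separate the groups by genotype alone. By the study's methods the Haspin-KO cells were transfected with plasmids for 2 guide RNAs against the Haspin coding sequence and selected in puromycin. Single clones were then chosen for loss of H3T3ph. No such steps are described for WT cells, so an effect of genotype cannot be told apart from one of transfection, selection or cloning. The labels do not say which clone gave which library, and they do not say whether replicates came from separate cultures, so p-values measure the spread between these libraries only. By the study's methods the cells were passaged on mitomycin C-treated mouse embryonic fibroblasts and placed on gelatin when assayed; the growth surface behind the RNA is not given in the labels.

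Chemokines are small secreted proteins that draw cells, above all leukocytes, along a gradient, and they act on G protein-coupled receptors of the Ccr and Cxcr groups. Interleukins are secreted signals first described between leukocytes, whose receptors are mostly built from a ligand-binding chain and a shared signalling chain and often act through JAK and STAT proteins. TNF family ligands are membrane-bound or shed trimers whose receptors recruit TRAF or death-domain adaptors and drive NF-kB signalling or cell death. mESCs themselves are kept in culture by LIF, a cytokine of the interleukin 6 family that signals through the same chain, Il6st, as the interleukin 6 receptor.

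Library totals ranged from 14207828 to 21834847 counts. The Haspin gene itself had 875 and 619 counts in WT and 149 and 209 in Haspin-KO libraries. It was lower in Haspin-KO by 1.60 on the log2 scale (SE 0.16, edgeR adjusted p = 0.00154), and the table counts reads over the whole gene, including any part left intact. The 10 markers of mouse embryonic stem cells examined were all well expressed, with summed levels of 6700 and 6983 CPM (counts scaled to a common library total) in WT and 6300 and 6505 CPM in Haspin-KO, and none was called different. Markers of fibroblasts moved with genotype: of 18 examined, 13 were tested and 8 were lower in Haspin-KO (Col1a1, Col1a2, Col3a1, Col5a2, Postn, Prrx1, Lox and Thbs1). The summed level of all 18 was 320.9 and 235.3 CPM in WT against 45.7 and 42.9 CPM in Haspin-KO. The 5 tested markers that were not called were Pdgfra (log2 difference 0.30), Fbn1 (−0.10), Twist1 (−0.18), Thy1 (−0.51) and Pdgfrb (−0.85). Of the 5 not tested, Lum was at 0 in every library, and Dcn, Fap, Col6a1 and Col6a2 had at most 16 counts in any library. In such bulk RNA, fewer cells of a type and less RNA per cell cannot be told apart. Of 12 leukocyte markers, 3 were tested (Cd68, Cd3e and Cd79a) and none was called. Ptprc, Adgre1, Lyz2, Tyrobp and Ms4a1 were at 0 in every library. The summed level of the 12 was 18.03 and 15.63 CPM in WT and 13.58 and 13.52 CPM in Haspin-KO, most of it from Cd68. Of the 6 endothelial markers, 4 were tested and none was called either.

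Most of these genes were silent or close to it in mESCs of both genotypes. Of the 169 genes, 55 had no count in any library, beside 26731 of all 55401 genes in the table, a larger share. A further 39 had at most 3 counts in any library, and 25 exceeded 3 counts somewhere but did not pass the filter on low counts. The remaining 50 (29.6%) were tested, beside 28.1% of all genes in the table. A count of 0 allows up to 3 counts, equal to 0.137 CPM in the deepest library and 0.210 CPM in the Haspin-KO library where the limit is highest, and covers counting error only. The share tested varied between families, which were assigned by symbol. Only 6 of 37 chemokine ligands and 2 of 17 chemokine receptors were tested, as were 5 of 38 interleukins. Tested genes were 15 of 40 among interleukin receptors, 6 of 13 among TNF ligand superfamily genes and 14 of 20 among TNF receptor superfamily genes, and every TNF receptor superfamily gene had at least 1 count.

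**Figure D1:**
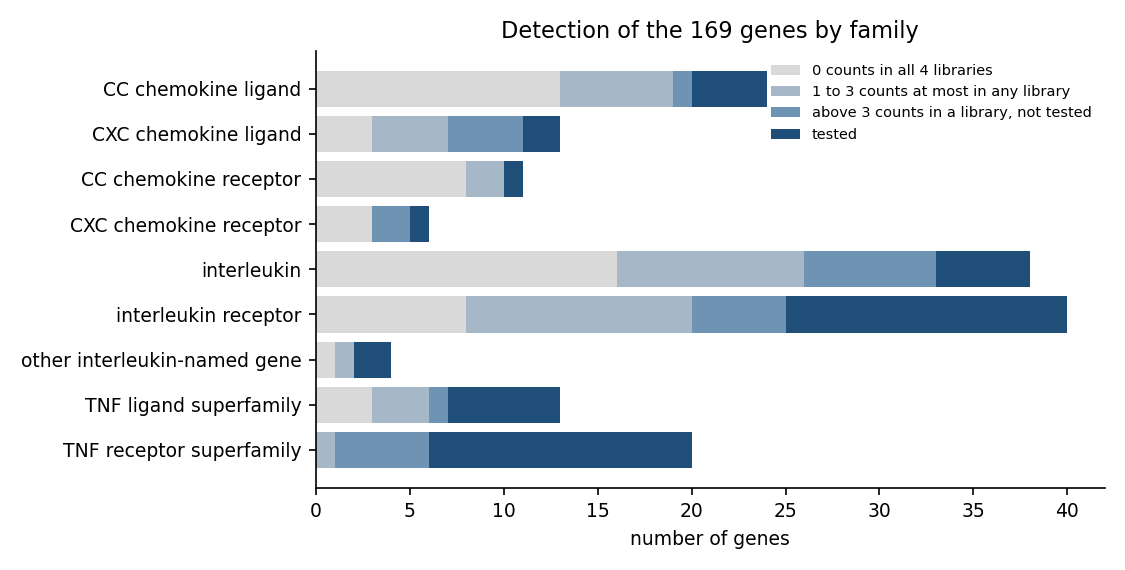
Number of genes (x axis) in each family (y axis), split by the counts found in the 2 WT and 2 Haspin-KO libraries. Darker segments stand for more counts; the TNF receptor superfamily has the largest tested share, 14 of 20, and the CC chemokine receptors the smallest, 1 of 11.

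Many of the best known inflammatory cytokines, and some chemokine receptors, had no count or only a few. Ccl5, Cxcr3, Il2 and Il6 had no count in any library. Cxcl1, a neutrophil attractant, had 0 and 2 counts in WT and 2 and 1 in Haspin-KO. Cxcl10, an interferon-induced ligand of Cxcr3, had 1 count in each WT library and 6 and 0 in Haspin-KO. Il1b had a single count, in Haspin-KO replicate 1. Il1a had 3 and 0 counts in WT and 2 and 3 in Haspin-KO, Il17a had 0 and 0 against 1 and 2, and Ccr7, which guides lymphocytes to lymph nodes, had 0 and 2 against 0 and 1. Tnfsf10, the death ligand TRAIL, had 1 count in all, and Tnf itself, which the symbol pattern does not take, was at 0 in every library. No difference between genotypes was detectable for these genes at this depth.

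The promoters of tested and silent genes are set side by side below because they differed in their content of CG dinucleotides, a base step that is common in promoters of widely expressed genes. Promoter windows of 300 bases (250 before and 50 after the RefSeq start, GRCm38.p6) were found for 129 of the 169 genes. Ccl2, Ccl7, Il17b, Il34 and Tnfrsf10b, all tested, were among the genes without a window. The median number of CG dinucleotides per window was 11 in the 35 tested genes, 5 in the 49 genes with counts that were not tested and 4 in the 45 genes without a count, beside 7 over all 27025 genes of the promoter table. Each sequence below covers 120 bases just before the gene's start (the more upstream of the RefSeq start and that in the deposited table), read 5′ to 3′ on the gene's strand, with CG in capitals. The first 3 are the tested genes of highest level with 1 listed start.
Tnfrsf21 (chr17:43016435-43016554, + strand): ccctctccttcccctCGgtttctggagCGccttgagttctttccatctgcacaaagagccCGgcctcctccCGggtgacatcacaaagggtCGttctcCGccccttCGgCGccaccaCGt
Il17rd (chr14:27038821-27038940, + strand): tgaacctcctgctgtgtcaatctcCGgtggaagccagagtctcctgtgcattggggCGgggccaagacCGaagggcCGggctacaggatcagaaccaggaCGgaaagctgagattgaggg
Il17d (chr14:57524657-57524776, + strand): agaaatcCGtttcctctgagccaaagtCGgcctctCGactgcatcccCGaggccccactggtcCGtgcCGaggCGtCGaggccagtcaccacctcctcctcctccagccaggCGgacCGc
The other 3 are textbook genes of the set with 1 listed start and no count in any library.
Cxcr3 (chrX:101734270-101734389, - strand): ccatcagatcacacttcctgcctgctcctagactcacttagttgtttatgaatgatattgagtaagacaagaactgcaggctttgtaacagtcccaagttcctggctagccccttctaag
Il2 (chr3:37125960-37126079, - strand): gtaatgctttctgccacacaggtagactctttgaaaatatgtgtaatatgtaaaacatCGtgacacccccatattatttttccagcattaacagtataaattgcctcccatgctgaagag
Il6 (chr5:30012994-30013113, + strand): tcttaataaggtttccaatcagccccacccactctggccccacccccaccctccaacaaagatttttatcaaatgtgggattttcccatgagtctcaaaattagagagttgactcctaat
The stretches of Tnfrsf21, Il17rd and Il17d held 9, 5 and 10 CG dinucleotides. Those of Cxcr3, Il2 and Il6 held 0, 1 and 0. The classes overlapped: in tested genes the number per window ran from 1 to 43, and in genes without a count from 0.5 (a mean over several starts) to 45.

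**Figure D2:**
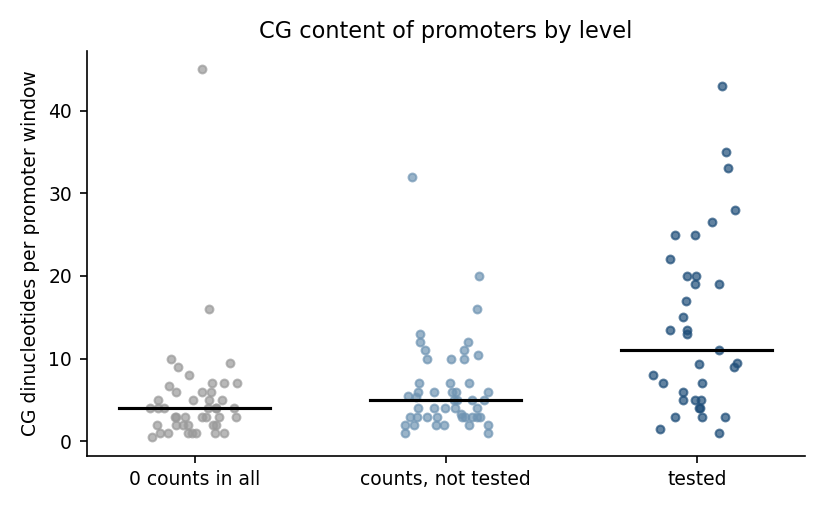
CG dinucleotides per 300-base promoter window (y axis) for genes without a count, genes with counts that were not tested, and tested genes (x axis). Each point is 1 gene, averaged over its listed starts, and the lines are medians, at 4, 5 and 11.

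NF-kB is the transcription factor through which many TNF and interleukin receptors raise chemokine genes. A match to the NF-kB consensus of 10 letters, on either strand, lay in the promoter window of 22 of the 129 genes (17.1%), beside 9.55% of all genes in the promoter table. A match to the AP-1 motif TGANTCA, on either strand, lay in 28 (21.7%), beside 8.97% of all genes. Both motifs were found in 9 genes and in no window did matches of the 2 motifs share a base. Among tested genes with a window the numbers were 5 of 35 (14.3%) for NF-kB and 4 (11.4%) for AP-1. Ccl2 and Ccl7 had no window and were not searched. The following windows of 30 bases around an NF-kB match are from 5 inflammatory genes of the set, the neutrophil attractants Cxcl1, Cxcl2 and Cxcl3 among them. They are printed on the gene's strand, with the match in capitals.
Cxcl1 (chr5:90891164-90891193, + strand): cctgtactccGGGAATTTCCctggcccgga
Cxcl2 (chr5:90903792-90903821, + strand): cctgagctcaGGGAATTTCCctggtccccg
Cxcl3 (chr5:90786018-90786047, + strand): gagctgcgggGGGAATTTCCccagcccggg
Cxcl10 (chr5:92348973-92349002, - strand): cggtttacagGGGACTTCCCtcgggttgcg
Il6 (chr5:30013060-30013089, + strand): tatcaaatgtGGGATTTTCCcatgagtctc
None of these 5 genes was tested, and Cxcl10 had the most counts of them in any library, 6. A match describes the letters of the window only.

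Of the 50 tested genes, 2 were lower in Haspin-KO and 0 were higher when a call required both an adjusted p below 0.05 and more than a 2-fold difference. Over all 15580 genes tested by edgeR, 0.501% (78 genes) were lower and 0.327% (51 genes) were higher by the same rule. The 2 genes were Ccl2 and Ccl7, 4.0% of those tested. Both had counts in WT libraries alone and passed the filter on low counts through that group, so they could only come out lower. Their share is a description only. At an unadjusted p under 0.05, 6 of the 50 genes differed, 5 of them lower and 1 higher, beside 20.8% of all genes. DESeq2 also called 0 of these genes higher. Both Haspin-KO libraries lay below both WT libraries in 15 of the 50 genes, beside 26.9% of all genes, and above them in 5, beside 25.3%. With Ccl2 and Ccl7 set aside these were 13 of 48 (27.1%) and 5 (10.4%). The median log2 fold change was −0.16, beside −0.0039 over all genes, and 32 of the 50 were negative (64.0%, beside 50.6%). Without Ccl2 and Ccl7 the fitted values ran from −1.51 to 0.98 with a median of −0.15. The 95% interval lay within a 2-fold change in either direction for 27 of the 50 genes, beside 77.1% of all genes. For the others, Ccl2 and Ccl7 aside, the interval reached past a 2-fold difference.

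**Figure D3:**
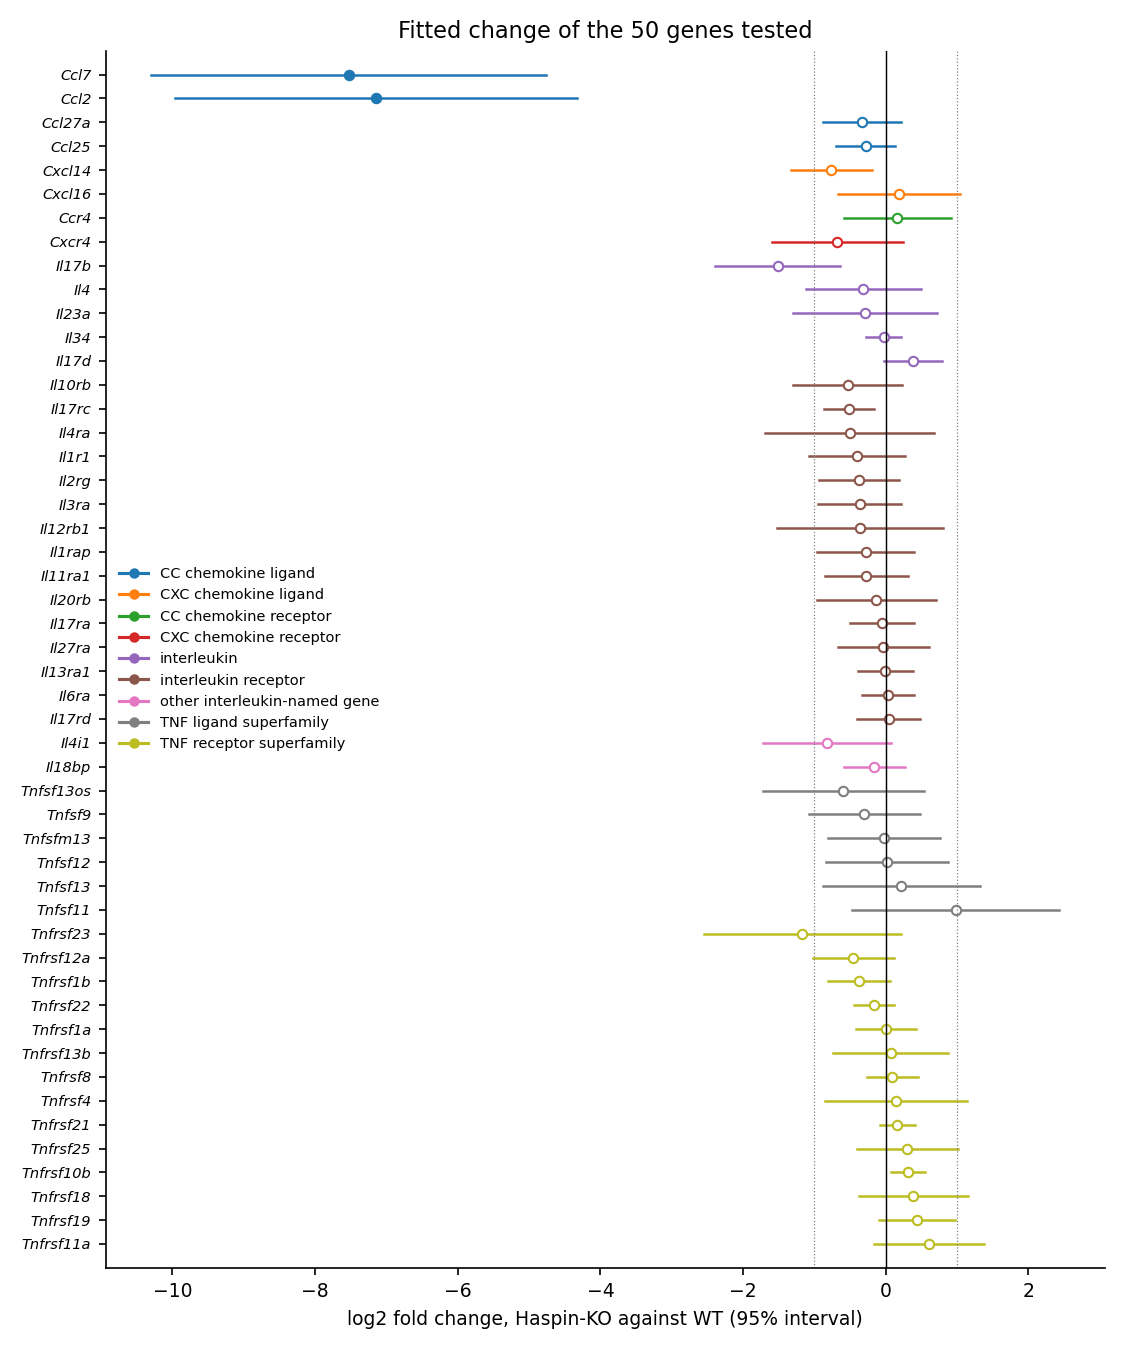
Fitted log2 fold change of Haspin-KO against WT (x axis) with its 95% interval for the 50 tested genes (y axis), coloured by family. Filled points are the genes called lower, Ccl7 and Ccl2; dotted lines mark a 2-fold change in either direction.

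Ccl2 and Ccl7 attract monocytes through the receptor Ccr2 and, for Ccl7, further receptors. Ccl2 had 16 and 24 counts in WT and none in either Haspin-KO library. Ccl7 had 20 and 32 counts in WT and none in either Haspin-KO library. Both genes were thus detected in both WT libraries at a low level and in neither Haspin-KO library. In CPM, Ccl2 was 1.06 ± 0.461 (SD, n = 2) in WT and Ccl7 was 1.38 ± 0.658 (SD, n = 2). Set against 3 counts per Haspin-KO library, the WT mean was 5.05 times that limit for Ccl2 and 6.59 times for Ccl7. These ratios leave out the spread between the WT libraries, so they are no strict lower bounds. WT replicate 1 lay below the mean, at 0.7324 CPM for Ccl2 and 0.9155 CPM for Ccl7. The adjusted p was 0.0275 for Ccl2 and 0.0216 for Ccl7, and the fitted log2 values, −7.15 and −7.53, depend on the prior count and are no bound. Leaving out WT replicate 2 ended both calls (adjusted p = 0.128 for Ccl2 and 0.109 for Ccl7), and leaving out WT replicate 1 ended that of Ccl2 (0.0629) and kept that of Ccl7 (0.0364). DESeq2 at its default gave no adjusted p for either gene (unadjusted p = 0.000305 and 7.07e-05), and without its independent filtering it called both (0.0303 and 0.0097).

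The 2 genes lie next to each other on chromosome 11 (mm10), Ccl2 at chr11:82035571-82037453 and Ccl7 at chr11:82045712-82047525, both on the + strand. They open a cluster of 6 CC chemokine ligands that runs on through Ccl11, Ccl12, Ccl8 and Ccl1. Ccl11 and Ccl12 had no count in any library. Ccl8 had 3 counts and Ccl1 had 1, all in WT replicate 1. The counts of the cluster were therefore nearly all from Ccl2 and Ccl7. Ccr2, the receptor both bind, had no count in any library.

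The fibroblast markers and the chemokines can be set side by side between the WT libraries. The sum of all 18 markers, most of whose WT level came from Thbs1, Lox, Col1a1 and Col5a2, was 1.36 times as high in WT replicate 1 as in WT replicate 2. Ccl2 and Ccl7 were instead 1.89 and 2.02 times as high in WT replicate 2, on the small counts given above. Of the 8 markers called, 7 were higher in WT replicate 1, and Col3a1 was higher in WT replicate 2 (6.96 CPM in replicate 1 and 7.61 CPM in replicate 2). Csf1, the macrophage growth factor, a cytokine outside these families that was on the list of related genes, had 367 and 198 counts in WT and 31 and 15 in Haspin-KO. It fell by 3.14 on the log2 scale (SE 0.31, adjusted p = 0.00154). Its WT mean was 8.79 times its Haspin-KO mean, beside 6.28 times for the sum of all 18 markers. That sum includes markers not called, among them Fbn1 at 17.41 and 20.73 CPM in Haspin-KO. The fitted log2 values of the 8 called markers ran from −12.6 (Lox) to −2.91 (Col5a2). Lox and Postn had no count in either Haspin-KO library, so their fitted values depend on the prior count and are no bound. Csf1 was 1.47 times as high in WT replicate 1 as in WT replicate 2, the same order as the summed markers. The part of fibroblast RNA in the differences of Ccl2, Ccl7 and Csf1 was not tested.

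**Figure D4:**
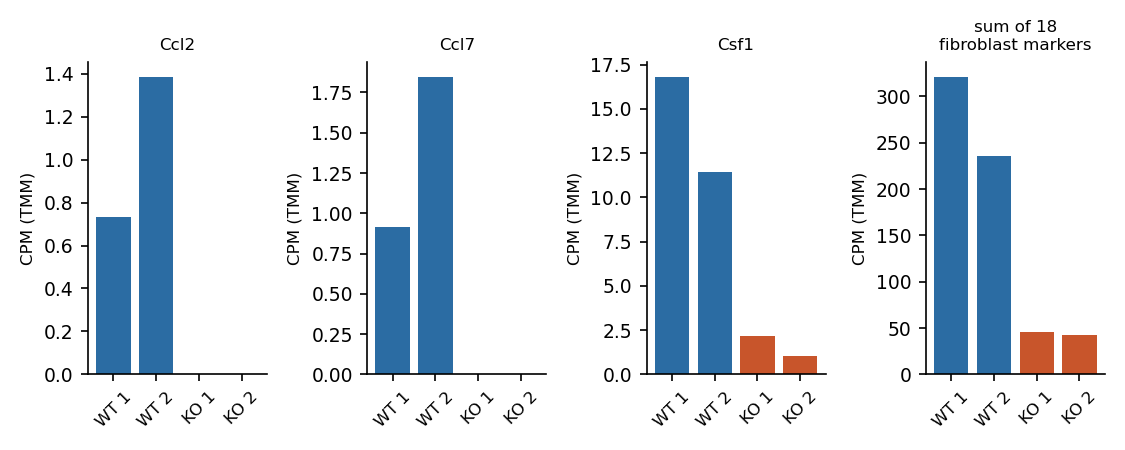
Level in CPM after TMM scaling (y axis, from 0, with a scale of its own in each panel) of Ccl2, Ccl7, Csf1 and the sum of 18 fibroblast markers in each library (x axis), WT in blue and Haspin-KO in orange. All 4 are lower in both Haspin-KO libraries; Ccl2 and Ccl7 are higher in WT replicate 2, and Csf1 and the summed markers in WT replicate 1.

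The other 4 chemokine ligands tested did not pass the test. Cxcl14, a ligand made by epithelia, had 109 and 116 counts in WT and 56 and 42 in Haspin-KO. Its groups did not overlap, at a log2 difference of −0.76 (SE 0.25, adjusted p = 0.134). Ccl25, the thymic ligand of Ccr9, had 227 and 246 counts in WT and 147 and 141 in Haspin-KO (log2 difference −0.28, adjusted p = 0.406). Exons of Ccl25 overlap those of Elavl1 on the other strand, and the strand setting of the counting is not given in the sources used here. Ccl27a, whose exons overlap Il11ra1 on the other strand, had a log2 difference of −0.33, and Cxcl16, which overlaps Zmynd15, one of 0.19. Among ligands not tested, Cxcl12, the ligand of Cxcr4, had 8 and 4 counts in WT and 5 and 1 in Haspin-KO, and Cxcl5, a neutrophil attractant, had 1 and 8 against 1 and 2.

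Most chemokine receptors were not detected. Cxcr4, the Cxcl12 receptor, had 36 and 46 counts in WT and 13 and 25 in Haspin-KO. The lower WT level, 1.65 CPM, lay below the higher Haspin-KO level, 1.75 CPM, so the groups overlapped (log2 difference −0.68, SE 0.41, adjusted p = 0.378). Ccr4, the receptor of Ccl17 and Ccl22, had 29 and 27 counts in WT and 23 in each Haspin-KO library (log2 difference 0.16, adjusted p = 0.826). Cxcr6, the receptor of Cxcl16, was not tested and had 8 and 26 counts in WT and 4 in each Haspin-KO library, with WT replicate 2 far above the other 3 libraries.

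Among interleukins, 5 of 38 were tested and none was called. Il17b, a member of the interleukin 17 family, had 51 and 54 counts in WT and 9 and 18 in Haspin-KO. Its levels in Haspin-KO did not reach either WT level, and the log2 difference of −1.51 (SE 0.39) missed the threshold at an adjusted p of 0.0762. Il17b passed it in edgeR with no filter on low counts (adjusted p = 0.00337). It did not pass with DESeq2 size factors (0.0759) or library totals (0.0814) in edgeR. DESeq2 without independent filtering (0.347) and limma with a pseudocount of 0.1 (0.266) or 1 (0.189) did not call it either. With 1 library left out in turn, its log2 difference ran from −2.10 to −1.09. Exons of Il17b overlap Gm38165 on the other strand. Il17d, of the same family, had 142 and 101 counts in WT and 114 and 117 in Haspin-KO. Scaled for depth, it was higher in both Haspin-KO libraries (log2 difference 0.38, SE 0.18, adjusted p = 0.259). The 2 family members thus differed in sign and neither passed the test. Il17f, which was not tested, had 8 and 4 counts in WT and 5 and 3 in Haspin-KO.

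Il34, which binds the Csf1 receptor, was the interleukin of highest level per length. Its level was 16.5 and 14.8 FPKM, a level scaled for exon length and library total, in WT and 16.0 and 14.8 FPKM in Haspin-KO. The genotypes overlapped, and the log2 difference of −0.03 had a 95% interval from −0.27 to 0.21. Csf1r itself had 3 and 1 counts in WT and 8 and 1 in Haspin-KO. Il4, the signature cytokine of type 2 helper T cells, was tested at 30 and 34 counts in WT and 20 and 18 in Haspin-KO, with overlapping levels (log2 difference −0.31, adjusted p = 0.660). Il23a, a subunit of interleukin 23, had a log2 difference of −0.29 with an interval from −1.30 to 0.72. Of those not tested, Il33, a nuclear alarmin, had 9 and 1 counts in WT and 5 and 9 in Haspin-KO. Il10, an anti-inflammatory interleukin, had 2 and 1 against 4 and 3, Il11, of the interleukin 6 family, had 6 and 3 against 3 and 1, and Il7 had 9 and 4 against 5 and 4.

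Interleukin receptors were the largest tested family, with 15 of 40, and 0 called. Their fitted differences were small and mostly negative: 13 of the 15 were below 0, the median was −0.28 and the range ran from −0.54 to 0.04. Il17rc, which pairs with Il17ra to bind interleukin 17A and 17F, had 241 and 198 counts in WT and 113 and 111 in Haspin-KO. Its levels were 11.2 ± 0.276 CPM in WT and 7.82 ± 0.0661 CPM in Haspin-KO (SD, n = 2 each). The groups did not overlap, at a log2 difference of −0.52 (SE 0.16, adjusted p = 0.109). Il17ra, its partner, had a log2 difference of −0.05 with an interval from −0.50 to 0.40. Il17rd, a member of the receptor family known for restraining fibroblast growth factor signalling, had the highest level of the family per length, at 5.82 and 9.51 FPKM in WT and 7.14 and 8.68 FPKM in Haspin-KO. WT held both its lowest and its highest library (log2 difference 0.04, adjusted p = 0.927). Il17re, the interleukin 17C receptor, had 13 and 17 counts in WT and 8 and 9 in Haspin-KO, and Il17rb, the Il17b receptor, had 5 and 3 against 8 and 6, and neither was tested.

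Il6ra, the ligand-binding chain that works with Il6st, was at 3.39 and 4.41 FPKM in WT and 3.47 and 4.51 FPKM in Haspin-KO. The libraries of each genotype differed from each other more than the genotypes did, and the log2 difference of 0.03 had an interval from −0.33 to 0.40. Il10rb, a shared chain of the interleukin 10 receptor group, had 53 and 33 counts in WT and 26 and 17 in Haspin-KO (log2 difference −0.54, SE 0.34, adjusted p = 0.402). Il2rg, the common gamma chain, had a log2 difference of −0.37 with an interval from −0.94 to 0.19, and Il1rap, the accessory chain of interleukin 1 receptors, had one of −0.28 from −0.96 to 0.40. Il1rl1, the Il33 receptor, had 3 and 1 counts in WT and none in Haspin-KO. Among genes named for an interleukin without being one, Il18bp, a secreted inhibitor of interleukin 18, had a log2 difference of −0.16. Il4i1, a secreted amino acid oxidase, had 31 and 27 counts in WT and 15 and 9 in Haspin-KO (log2 difference −0.82, SE 0.40, adjusted p = 0.277), and its exons overlap those of Nup62 on the same strand and of Atf5 and Tbc1d17 on the other.

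Of the 13 genes placed in the TNF ligand superfamily by symbol, among them the antisense Tnfsf13os, 6 were tested and none was called. Tnfsf11, the osteoclast-inducing ligand RANKL, had 7 and 14 counts in WT and 7 and 24 in Haspin-KO. Replicate 2 was the higher library in each genotype and the groups overlapped (log2 difference 0.98, SE 0.65, adjusted p = 0.416). Tnfsf12, the ligand TWEAK, had 43 counts in each WT library and 20 and 44 in Haspin-KO, a log2 difference of 0.02 with an interval from −0.84 to 0.88. Tnfsf12, Tnfsf13, their joint transcript Tnfsfm13 and the antisense Tnfsf13os lie at chr11:69682138-69696098 and share exons, so reads there could be split between them, and their 4 values are uncertain. Tnfsf9, the ligand of Tnfrsf9, had a log2 difference of −0.30.

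Receptors of the TNF superfamily were the best expressed of all the families. Tnfrsf21, a death-domain receptor also called DR6, had the highest level of the 169 genes, at 13.3 and 16.2 FPKM in WT and 16.0 and 17.2 FPKM in Haspin-KO. Its log2 difference was 0.16 with an interval from −0.09 to 0.41, within a 2-fold change. In the order of mean FPKM over the 4 libraries Tnfrsf21 (15.7) was followed by Il34 (15.5), Il17rd (7.79), Il17d (5.58), Tnfrsf8 (5.31), Tnfrsf1a (5.20), Tnfrsf10b (5.06), Tnfrsf22 (4.44), Tnfrsf19 (4.05) and Il6ra (3.95). The ranges over libraries of Tnfrsf21 and Il34 overlapped, and both lay above all libraries of Il17rd. From Il17rd on, each gene's range overlapped that of the next. Of the 14 tested receptors, 10 had a positive fitted difference and 4 a negative one, the median was 0.12, and none was called.

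Tnfrsf10b, the mouse death receptor for TRAIL, had 539 and 428 counts in WT and 449 and 426 in Haspin-KO. Scaled for depth this was 24.7 ± 0.0114 CPM in WT and 30.6 ± 1.01 CPM in Haspin-KO (SD, n = 2 each). Both Haspin-KO libraries were higher, at a log2 difference of 0.31 (SE 0.10, adjusted p = 0.143). Tnfrsf22 and Tnfrsf23, decoy receptors for TRAIL, had log2 differences of −0.17 and −1.17. Tnfrsf23 had only 30 and 11 counts in WT and 10 and 3 in Haspin-KO, and its levels overlapped (SE 0.61, adjusted p = 0.313). The death receptor and its decoys therefore had fitted values of opposite sign, none of which passed the test.

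**Figure D5:**
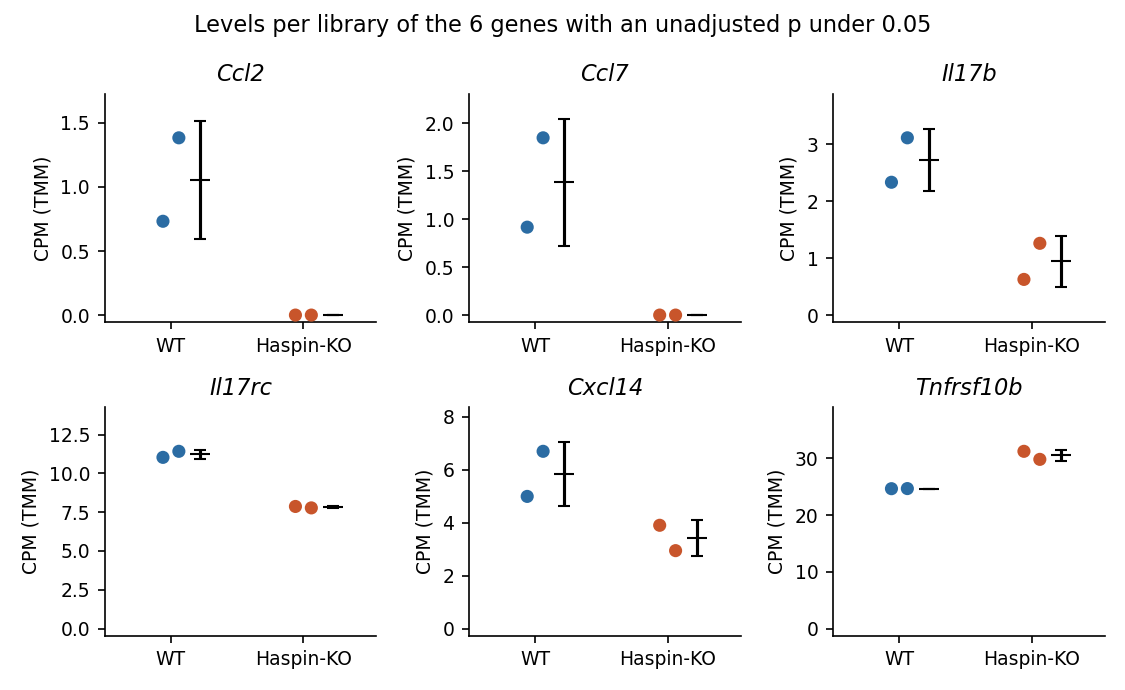
Level in CPM after TMM scaling (y axis) of the 6 genes with an unadjusted p under 0.05, by genotype (x axis). Points are libraries, and the bars beside them are the mean ± SD of 2; Ccl2 and Ccl7 are at 0 in both Haspin-KO libraries, Il17b, Il17rc and Cxcl14 are lower without overlap, and Tnfrsf10b is higher without overlap.

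Tnfrsf1a, the main TNF receptor of most tissues, was at 5.90 and 4.45 FPKM in WT and 6.0 and 4.46 FPKM in Haspin-KO. The genotypes had almost the same pair of values, and the log2 difference of 0.005 had an interval from −0.41 to 0.42. Tnfrsf1b, the receptor more typical of leukocytes, had 352 and 213 counts in WT and 181 and 134 in Haspin-KO, with overlapping levels (log2 difference −0.37, SE 0.19, adjusted p = 0.301). Tnfrsf12a, the receptor of Tnfsf12, had 194 and 96 counts in WT and 81 and 71 in Haspin-KO (log2 difference −0.45, SE 0.25, adjusted p = 0.335). WT replicate 1 was the highest library for Tnfrsf12a and the other 3 were close together. Tnfrsf11a, the receptor RANK, had 28 and 18 counts in WT and 27 and 24 in Haspin-KO, without overlap once scaled for depth (log2 difference 0.61, SE 0.34, adjusted p = 0.346). Its decoy Tnfrsf11b, osteoprotegerin, had 8 and 2 counts in WT and none in Haspin-KO and was not tested.

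Tnfrsf8, known as CD30 and found on activated lymphocytes and some germ cell tumours, had 412 and 289 counts in WT and 312 and 231 in Haspin-KO (log2 difference 0.09, interval −0.27 to 0.45). Tnfrsf19, an orphan receptor also called TROY, had 407 and 240 counts in WT and 403 and 230 in Haspin-KO. In each genotype replicate 1 was the higher library, and the log2 difference was 0.44 (SE 0.24, adjusted p = 0.329). Tnfrsf13c, a B cell receptor for the survival factor BAFF, had 8 and 3 counts in WT and 7 and 5 in Haspin-KO and was not tested.

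The signalling genes listed for these receptors, with the chains Il6st, Lifr and Osmr, all passed the filter on low counts. None was called. Some were at a low level, such as Traf1 with 27 and 10 counts in WT and 17 in each Haspin-KO library. Traf5 had 21 and 12 counts in WT and 8 and 9 in Haspin-KO. All 32 genes of the NF-kB and adaptor list were tested, with log2 differences from −0.49 to 0.35 and a median of −0.08. All 17 genes of the JAK and STAT list were tested, with a median of 0.02. The lowest of them was Osmr, the oncostatin M receptor, with 35 and 22 counts in WT and 6 and 8 in Haspin-KO (log2 difference −1.55, SE 0.43, adjusted p = 0.0891). Of 31 related cytokine and receptor genes that carry other symbols, some of the same families and some not, 17 were tested, and Csf1, described above, was called lower and none higher.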

How the data were processed

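Total RNA of E14 mESCs was sequenced after SMARTER mRNA-seq library preparation, in 2 WT and 2 Haspin-KO libraries. The authors trimmed reads with Cutadapt 1.9.1 and aligned them to mm10 with Hisat2 2.0.1. HTSeq 0.6.1 and DESeq2 are named in the submitters' processing notes. The deposited table gives raw counts and the authors' FPKM per gene, with coordinates and pathway terms. FPKM equalled counts divided by length and library total in 100% of values (tolerance 0.005). The strand setting is not given in the sources used here. Library totals were 21834847 and 17452307 (WT) and 14207828 and 14436750 (Haspin-KO). Limits set from a count of 0 cover counting error only; intervals of log2 differences come from the edgeR fit and include the spread between libraries.

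Counts were tested over all genes with edgeR 4.0.16 (R 4.3.3; filterByExpr, TMM, quasi-likelihood test, no block), which kept 15580 of 55401 genes. A call needed more than a 2-fold difference and a p below 0.05 after Benjamini-Hochberg adjustment. CPM are TMM-scaled. An exact permutation test of 2 against 2 libraries cannot go below p = 0.333 and was not used. Alternatives were DESeq2 1.42.0, DESeq2 size factors, library totals, other filters, limma 3.58.1 on log2(FPKM + 0.1) and log2(FPKM + 1) (genes reaching an FPKM of 0.5 in 2 or more libraries), the replicate number as a block, and leaving out each library. The fit was also run on simulated counts. Their changed genes lay above the mean level of Ccl2 and Ccl7, so that run did not cover those calls.

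Named genes were those called, the 15 with the smallest unadjusted p, the 10 with the highest mean FPKM, the 5 untested ones with most counts, a textbook list, and called genes of the pathway lists. Other genes named (such as Ccl8, Ccl25, Ccr2, Il17f, Il17ra, Il23a and Osmr) were chosen after their values were seen. The genes and lists were chosen with earlier results of these data known. Exon overlaps (39 of the 169 genes) come from GENCODE M21, and promoter sequences from RefSeq (GRCm38.p6).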

Additional observations from a re-analysis of the deposited data

How the results depend on the processing

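Ccl2 and Ccl7 were the calls on which the result for these families rested. The number called lower (2) became 0 with DESeq2 at its defaults, with at least 10 counts required in every library, and with limma on log2(FPKM + 0.1) or log2(FPKM + 1). It was 0 to 3 when 1 library was left out, with 1 call without WT replicate 1, none without WT replicate 2 and Il17b added without Haspin-KO replicate 2. The requirement of 10 counts removes Ccl2 and Ccl7 by construction, and DESeq2 set their adjusted p to NA by its independent filtering. For the rest the cause was not tested. DESeq2 without independent filtering was added after seeing the data. No setting called any of these genes higher.

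Over all genes, 78 were lower and 51 higher. DESeq2 gave 44 lower, no filter 140 lower and 125 higher, 10 counts in every library 36 lower, limma 21 lower and 21 higher with a pseudocount of 0.1 and 0 and 0 with 1 (where 100 genes passed a 2-fold difference with an unadjusted p below 0.05), and no minimum fold change 236 lower and 154 higher. Leaving out 1 library gave 37 to 150 lower and 17 to 157 higher. The median log2 fold change of the families (−0.16) was −0.031 with 10 counts in every library, −0.078 and −0.029 with limma, each over 39 genes.

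Same-numbered libraries deviated together with a correlation of 0.338 over 15580 genes, but with 2 pairs and no label for what a number marks, the samples share only a number. With the replicate block, 167 genes were lower and 240 higher, and Il17b (adjusted p = 0.0002) joined Ccl2 and Ccl7.

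For 8 named genes, none of them called, the fitted log2 value changed sign under some setting. Tnfrsf1a was −0.024 with no filter. Tnfsf12 was −0.011 with no filter, −0.078 and −0.029 with limma and −0.031 with the block. With 1 library left out in turn, the values ran from −0.015 to 0.779 for Tnfrsf19, −0.102 to 0.044 for Il34, −0.279 to 0.445 for Il17rd, −0.135 to 0.284 for Tnfrsf8, −0.204 to 0.22 for Tnfrsf1a, −0.189 to 0.239 for Il6ra, −0.161 to 1.735 for Tnfsf11 and −0.667 to 0.481 for Tnfsf12.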

Other observations

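The genes of these families often lie in clusters, and detection differed within some of them. On chromosome 5 the 5 ligands Cxcl5, Cxcl3, Cxcl15, Cxcl1 and Cxcl2 lie at chr5:90759360-90905938 (mm10), and none was tested. On chromosome 7 the TRAIL receptor cluster of Tnfrsf26, Tnfrsf22 and Tnfrsf23 lies at chr7:143607659-143685872. Tnfrsf26 had 4 and 3 counts in WT and none in Haspin-KO, so the 3 neighbours ranged from near absence to one of the 10 highest levels of the 169 genes.

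In the pathway terms deposited with the table, cytokine-cytokine receptor interaction held 328 genes, of which 114 were tested and 5 were lower in Haspin-KO (Ccl2, Ccl7, Csf1, Inhba and Tgfb3), with none higher, beside 0.501% lower over all genes tested. The IL-17 signaling term had 3 lower of 64 tested (Ccl2, Ccl7 and Ptgs2) and the TNF signaling term 3 of 95 (Ccl2, Csf1 and Ptgs2). The NF-kappa B signaling term had 1 of 82, Ptgs2, the chemokine signaling term 2 of 127, Ccl2 and Ccl7, and the JAK-STAT signaling term 1 of 100, Ccnd2. The terms share genes. Ccl2, Ccl7 and Csf1, already called above, recur in several of them, so the terms are no separate support for those calls.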
